A study of Rattus norvegicus with 28 samples.

Results

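The genes described are 10 transcripts of the NF-kappaB response in endothelial cells of rat heart grafts: the cytokines Il1b, Tnf and Il6, the antioxidant enzyme gene Sod2, the feedback genes Nfkbia, Tnfaip3 and Birc3, and the subunit genes Relb, Nfkb1 and Nfkb2. They were taken by name. Each was read from its brightest probe set, by mean over the 24 endothelial arrays, and all 10 of 10 were measured among 14217 genes. The rule for taking them used names and mean signal and no difference between groups, but it was set with earlier results of these data known.

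Endothelial RNA of 8 groups, with 3 samples each, was hybridised to Affymetrix rat arrays, and 4 further arrays held graft leukocytes. Allografts were hearts of the Dark Agouti (DA) strain, on days 2, 3 and 4 after transplantation, with endothelium of normal DA hearts as their control. Isografts, hearts of the Lewis strain, were taken on the same days and were set against endothelium of normal Lewis hearts. The leukocytes came from allografts, with 1 array for day 2, 2 for day 3 and 1 for day 4, and are labelled Lewis. All animals were male. Grafts were joined to vessels of the recipient's neck by cuffs. Minced hearts were depleted of CD45-bearing cells and then enriched for CD31-bearing cells with magnetic beads, so each sample is a bead-enriched suspension and not a pure cell type. The labels do not say whether replicates are separate animals, so p-values measure the spread between these samples, which may be technical.

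NF-kappaB is a family of dimeric transcription factors that inhibitor proteins hold in the cytoplasm. Interleukin-1, tumor necrosis factor and Toll-like receptor ligands activate a kinase complex that marks the inhibitor for destruction, and the released dimers enter the nucleus and switch on cytokines, adhesion molecules and survival genes. Among the genes switched on are the inhibitors themselves, which end the response. In endothelium the pathway is known for the adhesion molecules and chemokines by which leukocytes are recruited.

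The labelled cell type was checked first. The 9 of 10 measured endothelial markers had a log2 signal of at least 10.87 on every endothelial array. Of these 9, 1 was lower in each kind of graft over the mean of days 2 to 4, and 3 were lower in day 4 allografts. Markers of other cells were not absent from the grafts. Of 8 pan-leukocyte markers, 6 were higher in allografts and 5 in isografts over the mean of days. All 9 measured macrophage markers were higher in allografts than in normal DA hearts over the mean of days 2 to 4, and all 9 were higher in isografts than in normal Lewis hearts. The mean log2 signal of the macrophage list was 8.21 to 10.2 in allografts against 5.72 to 6.10 in normal DA hearts, and 7.54 to 9.88 in isografts against 5.80 to 6.05 in normal Lewis hearts. T cell markers reached 6.43 to 8.35 in allografts against 5.72 to 5.83 in normal DA hearts, and 7 of 8 were higher. In isografts they reached 5.96 to 6.79 against 5.71 to 5.96 in normal Lewis hearts, and 1 of 8 was higher. Of 7 fibroblast markers 3 were higher in each kind of graft, with list means of 7.97 to 12.3 in allografts against 7.29 to 8.40 in normal DA hearts and of 7.77 to 10.8 in isografts against 7.02 to 7.95 in normal Lewis hearts. Of 7 measured cardiomyocyte markers, 3 were lower in allografts (list means 5.63 to 6.62 against 6.10 to 6.97 in normal DA hearts) and 4 were lower in isografts (6.26 to 6.88 against 7.56 to 8.41 in normal Lewis hearts). In such mixed samples, fewer cells of a type and less RNA per cell cannot be told apart. Array medians lay between 6.51 and 6.59 on the endothelial arrays and between 6.83 and 6.88 on the leukocyte arrays. Replicates of an endothelial group correlated at r = 0.965 to 0.995 over all genes.

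NF-kappaB binds the kappaB element, a sequence of 10 bases. The 4 sequences that follow show where its consensus lies before a start annotated for these genes, because 4 of the 8 genes with a promoter in the RefSeq table (GRCr8 build) hold it in the 250 bases upstream. The starts are those of the table's transcripts: the Nfkb2 and Nfkbia windows lie within the span that RefSeq gives the whole gene, and so do 14 of the bases before the Tnfaip3 start, which are not printed. Capitals mark the match. Both strands were searched. The windows are printed 5′ to 3′ on the gene's strand: Tnfaip3 at chr1:15543994-15544229 on the minus strand, Il6 at chr4:5894576-5894825 on the minus strand, Nfkbia at chr6:78597084-78597113 on the minus strand, and Nfkb2 at chr1:255108344-255108373 on the plus strand.
Tnfaip3: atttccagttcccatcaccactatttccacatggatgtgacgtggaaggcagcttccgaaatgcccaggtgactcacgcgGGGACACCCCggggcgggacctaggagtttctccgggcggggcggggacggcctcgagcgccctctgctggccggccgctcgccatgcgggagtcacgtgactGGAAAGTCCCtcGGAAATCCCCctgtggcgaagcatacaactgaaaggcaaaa
Il6: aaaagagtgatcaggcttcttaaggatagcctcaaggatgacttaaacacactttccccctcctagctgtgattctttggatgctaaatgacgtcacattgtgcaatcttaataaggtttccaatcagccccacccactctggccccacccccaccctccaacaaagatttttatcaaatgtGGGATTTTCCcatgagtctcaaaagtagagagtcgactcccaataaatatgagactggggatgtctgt
Nfkbia: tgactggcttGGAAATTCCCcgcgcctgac
Nfkb2: tggtattttcGGGACTTTCCtaagagcact

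The Tnfaip3 window holds 3 matches, of which the one at -170 reads as a match on both strands, and those at -67 and -55 lie beside each other. Il6 has 1 match at -68, Nfkbia at -31 and Nfkb2 at -20, counted from the annotated start. The windows of Il1b, Tnf, Sod2 and Nfkb1 have none, and Birc3 and Relb were not searched. The Nfkb1 window lies wholly within the span that RefSeq gives the gene. Of 33469 promoters in the table, 6.33% hold the consensus in the same stretch. A match is a description of letters and not of binding. Of the 4 genes with a match, Tnfaip3 passed the test for a difference between grafts and normal hearts, as described further on. Of the 4 without, Il1b, Tnf and Sod2 did.

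Il1b, the gene of the cytokine interleukin-1 beta, moved furthest of the 10. On day 2 its log2 signal was 9.76, 10.44 and 11.04 in the 3 allografts. On day 3 it was 7.92, 9.83 and 9.73, and on day 4 it was 8.94, 10.39 and 9.24, against 5.46, 5.62 and 5.29 in normal DA hearts. Every allograft array lay above every normal DA array, by more than 2 log2 units. The increase over normal DA hearts was 31.1-fold on day 2 (log2 difference 4.96 ± 0.70, SE, n = 3 per group; adjusted p = 0.000185 by limma with Benjamini-Hochberg adjustment over all genes). It was 13.0-fold on day 3 (adjusted p = 0.00463) and 16.8-fold on day 4 (adjusted p = 0.000665). For the mean of days 2 to 4 it was 18.9-fold (log2 difference 4.24 ± 0.58; adjusted p = 5.14e-05). Leaving out any single array of the groups compared kept these 4 calls.

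Isografts also had more Il1b. On day 2 its log2 signal was 7.39, 10.48 and 7.32 in isografts, on day 3 it was 8.34, 10.74 and 9.69, and on day 4 it was 10.31, 9.58 and 9.50, against 5.92, 6.86 and 6.90 in normal Lewis hearts. Again no graft array fell into the range of the normal hearts, but replicate 2 of day 2 stood about 3 log2 units above its group. Il1b rose in isografts 8.17-fold on day 3 (log2 difference 3.03 ± 0.70; adjusted p = 0.0230) and 9.42-fold on day 4 (3.24 ± 0.70; adjusted p = 0.0113). The mean of days was 6.5-fold (2.70 ± 0.58; adjusted p = 0.00705). On day 2 the log2 difference was 1.83 ± 0.70 and did not pass (adjusted p = 0.314). The isograft calls depended on single arrays: day 3 was lost without replicate 1 or 2 of normal Lewis or replicate 2 or 3 of the isografts (adjusted p = 0.0589 to 0.171), and day 4 without replicate 1 of normal Lewis (adjusted p = 0.0614) or replicate 1 of the isografts (adjusted p = 0.0640). The mean was lost without replicate 1 of normal Lewis (adjusted p = 0.0692).

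The macrophage markers described before moved with Il1b. In day 2 allografts, where Il1b was highest, 4 of 6 measured neutrophil markers were higher as well, among them S100a9 (14.5-fold; adjusted p = 0.0123) and S100a8 (7.31-fold; adjusted p = 0.0247). The neutrophil list means were 5.78, 6.57 and 7.89 in day 2 allografts against 5.10 to 5.17 in normal DA hearts, and the array with 7.89 also had the highest Il1b signal. The gene whose signal followed Il1b most closely over the 24 endothelial arrays was Bcl2a1, a survival gene of the Bcl-2 family (r = 0.964), followed by Glipr1 (r = 0.939) and Ccl6, a chemokine gene (r = 0.939). On day 2 the isograft array with the high Il1b signal had a macrophage list mean of 8.89, against 7.54 and 7.61 on the other day 2 isograft arrays. The part of macrophage or neutrophil RNA in the Il1b difference was not tested. The plot of the 4 genes against macrophage markers shows the values of each array.

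**Figure D1:**
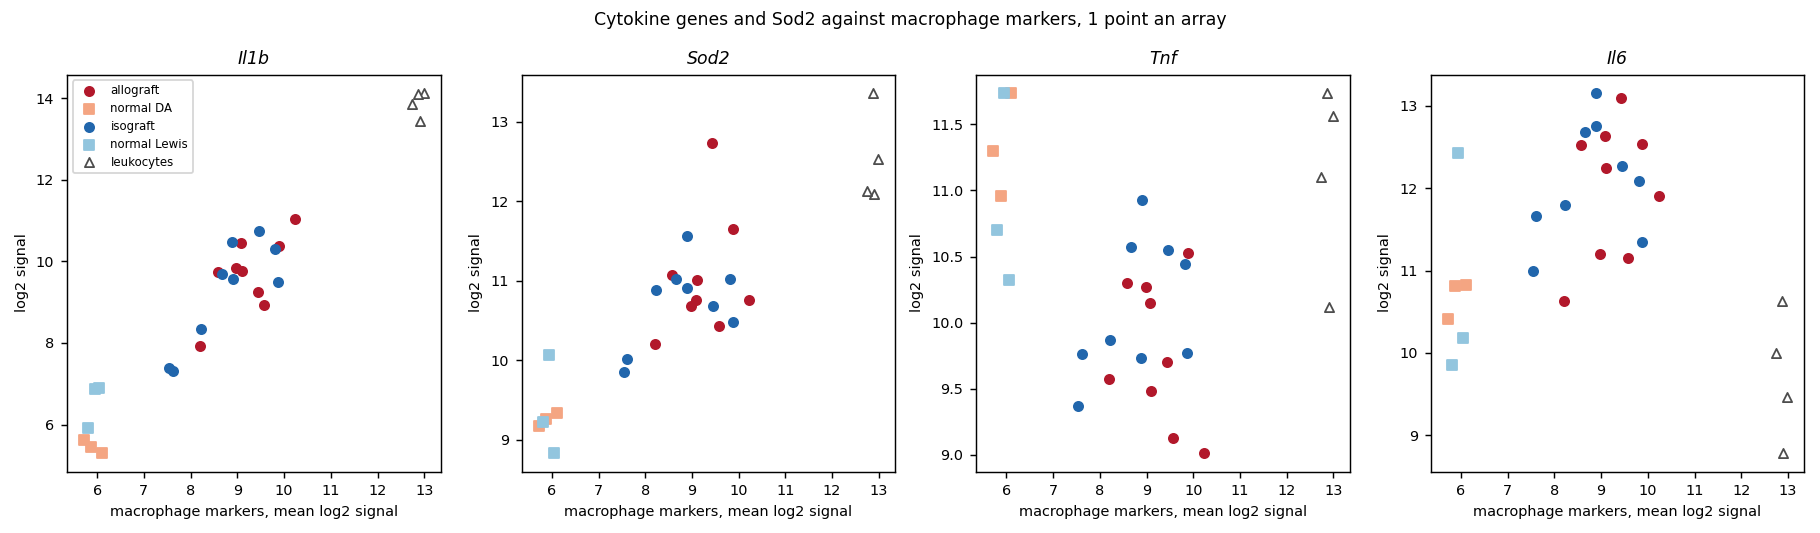
Log2 signal of Il1b, Sod2, Tnf and Il6 (vertical axes) against the mean log2 signal of 9 macrophage markers (horizontal axes), 1 point per array. Normal hearts lie at the left, with macrophage means of 5.72 to 6.10 in DA and 5.80 to 6.05 in Lewis, and grafts lie to the right. Il1b lies higher in all grafts than in their normal hearts. Sod2 does so in allografts, while day 2 isografts overlap normal Lewis hearts.

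Tnf, the gene of tumor necrosis factor, went the other way. Its log2 signal was 9.48, 10.15 and 9.01 in day 2 allografts, 9.57, 10.27 and 10.30 in day 3 allografts and 9.13, 10.53 and 9.70 in day 4 allografts, against 10.96, 11.30 and 11.74 in normal DA hearts. All 9 allograft arrays lay below all normal DA arrays. Tnf fell in allografts on day 2 (log2 difference -1.79 ± 0.39; adjusted p = 0.00788) and on day 4 (-1.55 ± 0.39; adjusted p = 0.0128). Over the mean of days 2 to 4 the log2 difference was -1.55 ± 0.32 (-1.545 before rounding), to 0.343 of the normal level, with adjusted p = 0.00314. On day 3 the difference of -1.29 did not pass (adjusted p = 0.103). The day 2 call was lost without replicate 3 of normal DA (adjusted p = 0.0505) or replicate 3 of the allografts (adjusted p = 0.0587), and the day 4 call without replicate 3 of normal DA (adjusted p = 0.0687) or of the allografts (adjusted p = 0.0509), while the mean over days kept its call without any single array. In a fit of the day 4 allografts and normal DA alone, Tnf did not pass either (adjusted p = 0.0726).

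In isografts, Tnf had a log2 signal of 9.37, 9.73 and 9.76 on day 2, of 9.87, 10.55 and 10.57 on day 3 and of 10.44, 10.93 and 9.77 on day 4, against 10.70, 11.74 and 10.32 in normal Lewis hearts. The day 2 isografts lay below the normal Lewis range, and the later days overlapped it. No isograft day passed the test for Tnf. A second probe set of the gene gave group means of 7.94, 8.51 and 8.46 in allografts of days 2, 3 and 4, against 9.84 in normal DA hearts. It gave 8.01, 8.56 and 8.82 in isografts of the same days, against 9.13 in normal Lewis hearts, so both probe sets had their lowest means in the grafts. Tnf and Il1b correlated at r = -0.496 over the 24 arrays, which share groups and normalization. Some cardiomyocyte markers were lower in both kinds of graft, as described before. Between the normal hearts their list means were 6.10 to 6.97 in DA and 7.56 to 8.41 in Lewis. The Tnf means there went the other way, with 11.3 in DA and 10.9 in Lewis and overlapping arrays. The part of cardiomyocyte RNA in the Tnf difference was not tested.

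Il6, the gene of interleukin-6, which in other tissues is made by fibroblasts, macrophages and endothelium, did not pass in any comparison as fitted over all 24 arrays. Its log2 signal was 12.25, 12.63 and 11.91 in day 2 allografts, 10.63, 11.20 and 12.52 in day 3 allografts and 11.15, 12.54 and 13.10 in day 4 allografts, against 10.81, 10.41 and 10.83 in normal DA hearts. Day 2 and day 4 allografts lay above the normal DA range and day 3 overlapped it. The log2 differences were 1.58 ± 0.64, 0.77 ± 0.64 and 1.58 ± 0.64 on days 2, 3 and 4 (adjusted p = 0.169, 0.844 and 0.126). In a fit of the day 2 allografts and normal DA alone Il6 passed (adjusted p = 0.00653). On day 4 it passed after centring on endothelial markers (adjusted p = 0.0404). These markers averaged 11.99 in day 4 allografts and 12.29 in normal DA hearts. Centring on them therefore raised the day 4 differences of all genes alike, here and wherever it is named further on.

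In isografts, Il6 stood at 10.99, 13.16 and 11.66 on day 2, 11.80, 12.27 and 12.68 on day 3 and 12.09, 12.76 and 11.35 on day 4, against 9.85, 12.43 and 10.18 in normal Lewis hearts. One normal Lewis array, replicate 2, thus lay within the graft range. Over the mean of days the log2 difference was 1.27 ± 0.52 (adjusted p = 0.209), and without that array it was 2.07 (adjusted p = 0.0377). The genes that followed Il6 most closely were Hbegf, a growth factor of the epidermal growth factor family (r = 0.926), Arid5a (r = 0.897) and Litaf (r = 0.897).

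Sod2, the mitochondrial manganese superoxide dismutase and a known NF-kappaB target, was higher in the grafts. Its log2 signal was 11.01, 10.76 and 10.76 in day 2 allografts, 10.21, 10.68 and 11.08 in day 3 allografts and 10.43, 11.65 and 12.74 in day 4 allografts, against 9.26, 9.17 and 9.34 in normal DA hearts. No allograft array reached down to the normal DA arrays, and the spread was widest on day 4. Sod2 rose in allografts 3.01-fold on day 2 (log2 difference 1.59 ± 0.45; adjusted p = 0.0384) and 5.11-fold on day 4 (2.36 ± 0.45; adjusted p = 0.00156). Day 3 did not pass (log2 difference 1.40 ± 0.45; adjusted p = 0.133), but did in a fit of these groups alone (adjusted p = 0.0172). The mean of days 2 to 4 was 3.44-fold (log2 difference 1.78 ± 0.37; adjusted p = 0.00302) and kept its call without any single array, whereas the day 2 call was lost without any 1 of the 6 arrays compared (adjusted p = 0.0726 to 0.125). In a fit of the day 4 allografts and normal DA alone, Sod2 did not pass (adjusted p = 0.0606).

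Isografts had a Sod2 signal of 9.85, 11.57 and 10.02 on day 2, 10.89, 10.69 and 11.02 on day 3 and 11.03, 10.91 and 10.48 on day 4, against 9.23, 10.07 and 8.83 in normal Lewis hearts. Days 3 and 4 lay above the normal Lewis range. No single isograft day passed, although in fits of the groups compared alone day 3 (adjusted p = 0.0254) and day 4 (adjusted p = 0.0271) did. The mean of days passed (log2 difference 1.34 ± 0.37, 2.53-fold; adjusted p = 0.0378), and this call was lost without replicate 1 (adjusted p = 0.155) or replicate 3 (adjusted p = 0.236) of normal Lewis, replicate 2 of day 2 (adjusted p = 0.0508), any 1 of the day 3 arrays (adjusted p = 0.0506 to 0.0645) or replicate 1 (adjusted p = 0.0613) or 2 (adjusted p = 0.0574) of day 4. Tifa, a TRAF-interacting signalling gene (r = 0.945), and Litaf (r = 0.944) followed Sod2 most closely.

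Of the 3 feedback genes, Tnfaip3 was the one that rose. It encodes A20, a ubiquitin-editing enzyme that shuts down signalling from the tumor necrosis factor and Toll-like receptors. Its log2 signal was 12.37, 12.61 and 11.82 in day 2 allografts, 11.61, 12.11 and 12.50 in day 3 allografts and 11.39, 12.44 and 12.25 in day 4 allografts, against 11.00, 10.50 and 11.43 in normal DA hearts. All arrays of days 2 and 3 lay above normal DA, and 1 of day 4 fell within its range. Tnfaip3 rose 2.44-fold on day 2 (log2 difference 1.29 ± 0.36; adjusted p = 0.0336) and 2.21-fold over the mean of days (1.15 ± 0.29; adjusted p = 0.0141). On day 4 the log2 difference of 1.05 did not pass (adjusted p = 0.0606), but did with dim genes left out (adjusted p = 0.0489) or after centring on endothelial markers (adjusted p = 0.0142). The day 2 call was lost without replicate 1 (adjusted p = 0.0751) or 2 (adjusted p = 0.182) of normal DA or replicate 1 (adjusted p = 0.0815) or 2 (adjusted p = 0.115) of the allografts, and the mean without replicate 1 (adjusted p = 0.0518) or 2 (adjusted p = 0.147) of normal DA.

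In isografts the Tnfaip3 signal was 11.42, 12.76 and 11.84 on day 2, 12.00, 12.51 and 12.55 on day 3 and 12.28, 12.62 and 11.65 on day 4, against 10.63, 11.22 and 10.64 in normal Lewis hearts. No isograft array overlapped the normal Lewis arrays on any day. The gene rose 2.88-fold on day 3 (log2 difference 1.52 ± 0.36; adjusted p = 0.0231), 2.56-fold on day 4 (1.35 ± 0.36; adjusted p = 0.0388) and 2.55-fold over the mean of days (1.35 ± 0.29; adjusted p = 0.00736). Each of these calls was lost without replicate 1 or 3 of normal Lewis, with adjusted p = 0.110 and 0.0863 on day 3, 0.124 and 0.149 on day 4 and 0.0593 and 0.0583 over the mean. Day 3 was also lost without replicate 2 (adjusted p = 0.111) or 3 (adjusted p = 0.109) of the isografts, and day 4 without replicate 1 (adjusted p = 0.129) or 2 (adjusted p = 0.162) or after median centring of the arrays (adjusted p = 0.0725). The genes most like Tnfaip3 were Tfpi2, an inhibitor of proteases of the coagulation system (r = 0.936), Selp, which encodes the endothelial adhesion molecule P-selectin (r = 0.920), and Procr, the endothelial protein C receptor (r = 0.900).

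Nfkbia encodes IkappaB-alpha, the inhibitor that holds NF-kappaB in the cytoplasm. It had a log2 signal of 13.32 to 14.16 on all 24 endothelial arrays and the groups overlapped. Over the mean of days its log2 difference was 0.10 in allografts (95% interval -0.15 to 0.36) and 0.11 in isografts (-0.14 to 0.37). Neither interval of the signal reached above 0.37 log2 units. Its mean signal was above that of 99.8% of genes, and whether so bright a signal still follows RNA was not tested.

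Birc3 encodes cIAP2, a ubiquitin ligase that protects cells from death downstream of the tumor necrosis factor receptors. Its log2 signal was 8.94, 9.46 and 8.74 in day 2 allografts, 9.25, 9.40 and 9.41 in day 3 allografts and 8.92, 9.94 and 11.08 in day 4 allografts, against 8.74, 8.90 and 8.96 in normal DA hearts. One day 4 array stood more than 1 log2 unit above all other allograft arrays. In isografts the signal was 8.44, 10.87 and 8.68 on day 2, 8.68, 9.19 and 9.75 on day 3 and 9.02, 9.77 and 8.81 on day 4, against 8.10, 8.63 and 8.11 in normal Lewis hearts. No comparison passed as fitted, and in day 4 allografts it did after centring on endothelial markers (adjusted p = 0.0492). The mean log2 difference was 0.59 ± 0.41 in allografts (adjusted p = 0.471) and 0.97 ± 0.41 in isografts (adjusted p = 0.230).

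The subunit genes differed less. Relb and Nfkb2 encode the partners of the alternative NF-kappaB pathway, and Nfkb1 encodes the p105 precursor of p50. The Relb signal was 7.88, 7.95 and 7.74 in day 2 allografts, 8.37, 8.47 and 7.51 in day 3 allografts and 7.88, 8.73 and 9.07 in day 4 allografts, against 7.87, 8.50 and 8.13 in normal DA hearts. The Nfkb2 signal was 8.54, 8.59 and 8.75 in day 2 allografts, 8.99, 8.66 and 8.30 in day 3 allografts and 8.45, 9.42 and 9.67 in day 4 allografts, against 8.59, 9.04 and 8.79 in normal DA hearts. For both genes all 3 days overlapped normal DA, and 2 of the 3 day 4 arrays lay above it.

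In isografts, Relb ranged from 8.08 to 8.50 and Nfkb2 from 8.46 to 8.99, against 7.70 to 8.08 and 8.05 to 8.50 in normal Lewis hearts. Nfkb1 kept between 10.25 and 11.12 in allografts against 10.76 to 10.96 in normal DA hearts, and between 10.63 and 10.78 in isografts against 10.42 to 10.81 in normal Lewis hearts. None of the 3 passed in any graft comparison as fitted, and after centring on endothelial markers Nfkb2 did in day 4 allografts (adjusted p = 0.0455). The mean log2 difference of Nfkb1 was -0.16 in allografts (95% interval -0.42 to 0.09) and 0.04 in isografts (-0.22 to 0.29). Relb was most like Nfkb2 among all genes (r = 0.855), and Nfkb2 was most like Josd2 (r = 0.915) and Stip1, a cochaperone gene (r = 0.877).

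**Figure D2:**
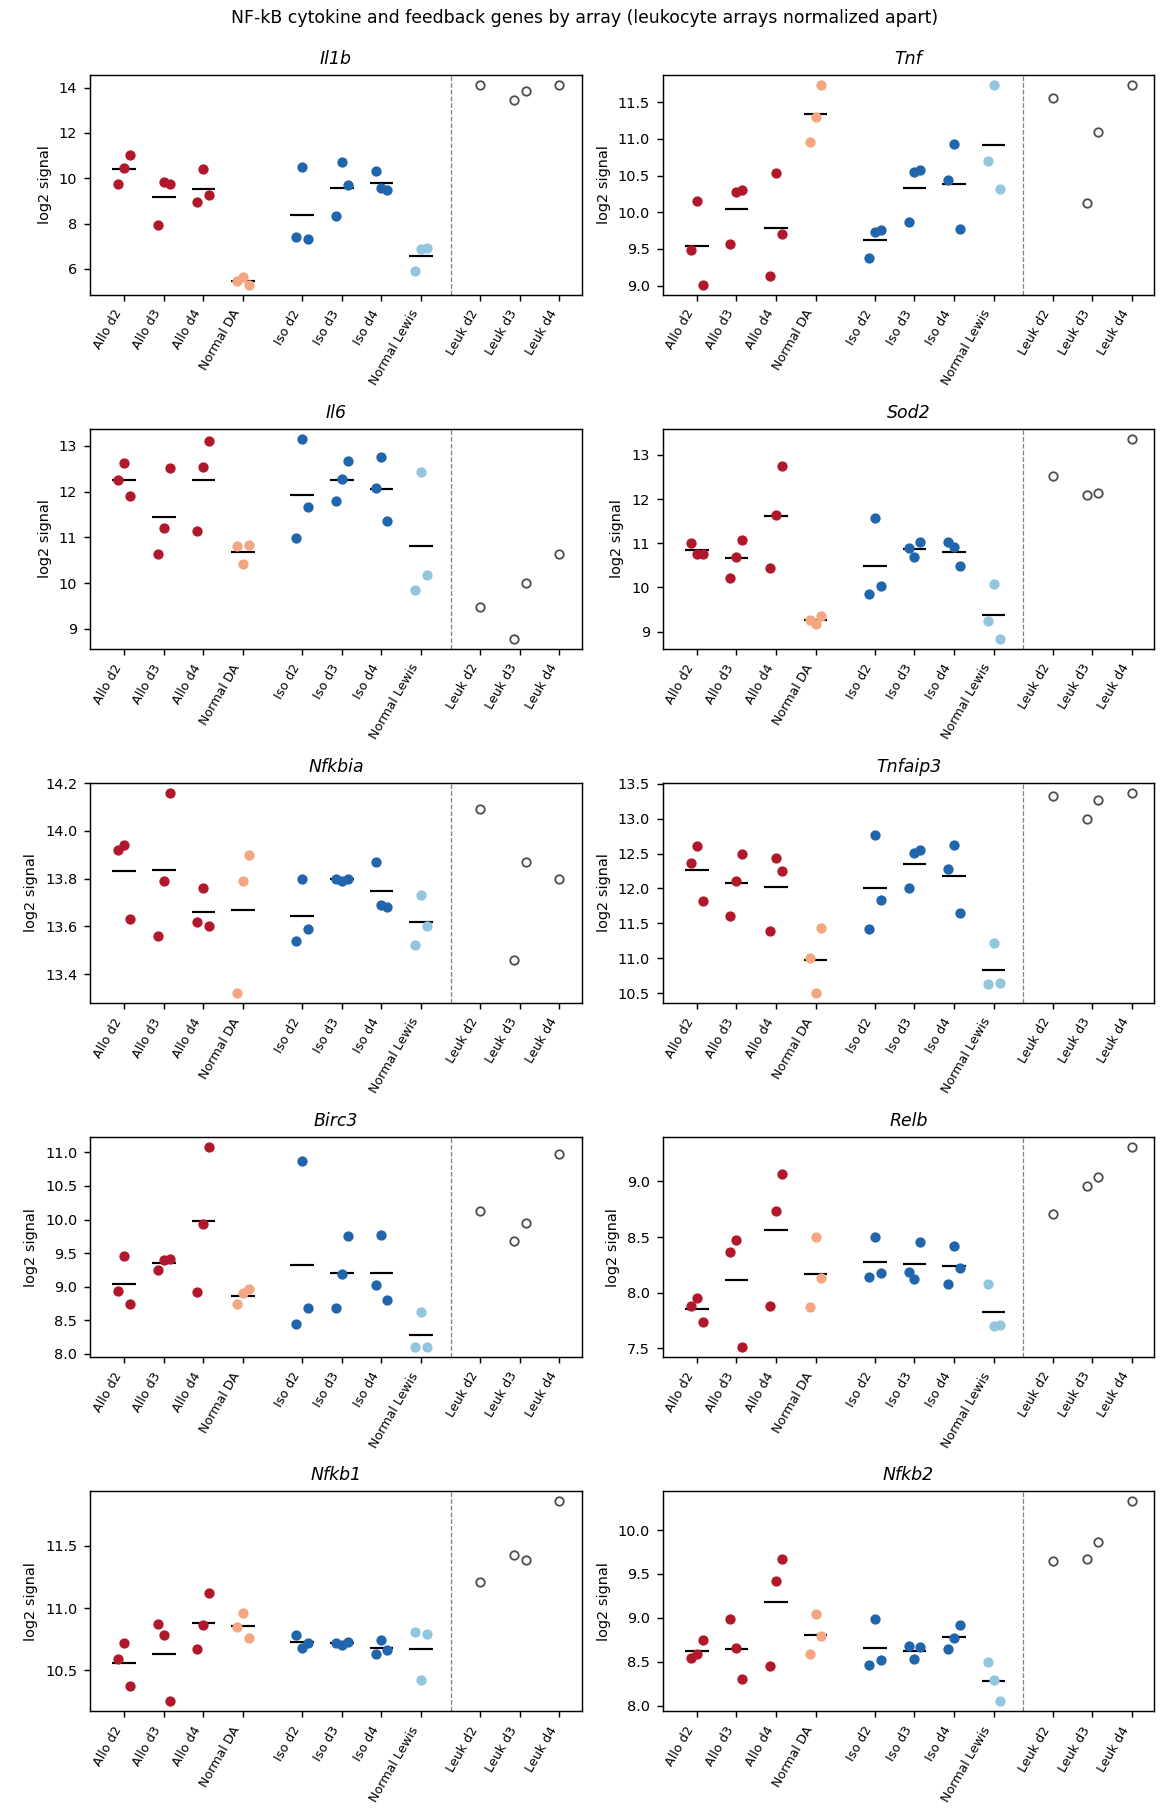
Log2 signal of each of the 10 genes (1 panel each) on every array, with allografts of days 2, 3 and 4 and normal DA hearts, then isografts of the same days and normal Lewis hearts, and graft leukocytes as open circles right of the dashed line. Black lines are means of 3 arrays. Il1b lies above the normal hearts in all grafts, Tnf lies lower in all allografts, and Nfkbia stays between 13.32 and 14.16 in endothelium.

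Counted by comparison, 4 of 10 genes passed in day 2 allografts, with Il1b, Sod2 and Tnfaip3 higher and Tnf lower than in normal DA hearts, while 5.98% of all genes passed. On day 3, 1 of 10 passed (Il1b) against 2.28% of all genes, and on day 4, 3 of 10 (Il1b and Sod2 higher, Tnf lower) against 11.4% of all genes. For the mean of days, 4 of 10 passed, against 9.41%. The median log2 difference of the 10 over the mean of days was 0.35, and that of all genes was 0.01.

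In isografts, none of the 10 passed on day 2, when 1.48% of all genes did. By limma's unadjusted p under 0.05, 5 of the 10 and 1425 of all genes differed on that day. With the replicate number as a block, 1 gene passed, Tnf (log2 difference -1.30; adjusted p = 0.0329), and in a blocked fit of these 6 arrays alone, chosen after the data were seen, 4 did: Tnfaip3 (adjusted p = 0.00492), Il6 (adjusted p = 0.00656), Sod2 (adjusted p = 0.0104) and Tnf (adjusted p = 0.0183). In the blocked fit of these 6 arrays, 572 of all genes passed, against 211 on day 2 in the fit without a block. For the blocked fit of all arrays the count over all genes is not given here. On day 3, 2 of 10 passed (Il1b and Tnfaip3, both higher) against 2.53% of all genes, and on day 4 the same 2 passed against 3.17%. Over the mean of days, 3 of 10 passed (Il1b, Tnfaip3 and Sod2, all higher) against 4.55% of all genes. The median of the 10 was 0.70, and that of all genes was -0.01.

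**Figure D3:**
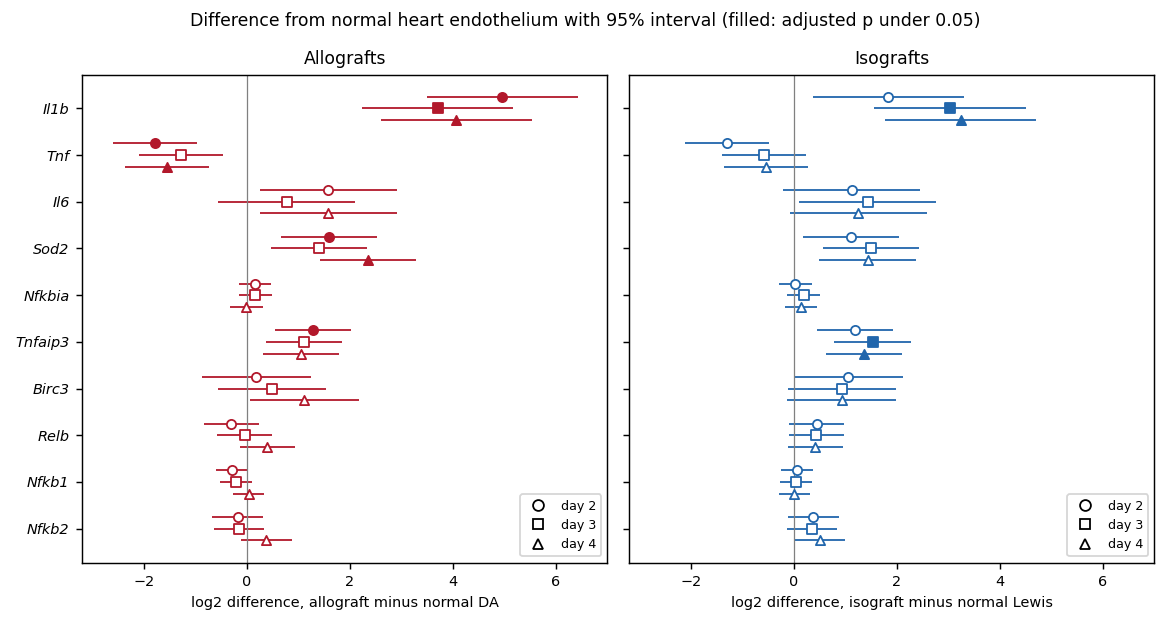
Log2 difference of each gene from its normal hearts with its 95% interval, allografts left and isografts right, with circles, squares and triangles for days 2, 3 and 4 and filled symbols where adjusted p is under 0.05. Il1b is filled on all 3 allograft days, from 3.70 to 4.96, and on isograft days 3 and 4.

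Whether allografts and isografts differed in these changes was asked directly, by the allograft change minus the isograft change, each from its own strain's normal hearts. None of the 10 passed on day 2 (0% of all genes passed), on day 3 (0%), on day 4 (0.00703%) or over the mean of days (0.00703%) by limma. By unadjusted p under 0.05, 1 of the 10 differed on day 2 (480 of all genes), and 0 on day 3 (334), on day 4 (783) and over the mean (578). The gene on day 2 was Il1b, whose change was larger in allografts by 3.12 log2 units (95% interval 1.05 to 5.20; adjusted p = 1). Replicate 2 of the day 2 isografts, with its high Il1b, is part of that comparison.

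Over the mean of days the difference between the changes was 1.54 for Il1b (95% interval -0.15 to 3.24), -0.74 for Tnf (-1.68 to 0.21), 0.44 for Sod2 (-0.64 to 1.52) and -0.21 for Tnfaip3 (-1.06 to 0.65). These intervals hold both no difference and differences of up to 3.24 log2 units for Il1b, so the arrays do not show that the 2 kinds of graft responded alike. Strain and kind of graft cannot be told apart. Between the normal hearts, none of the 10 passed for DA minus Lewis (1.01% of all genes passed, and by unadjusted p under 0.05 it was 1 of the 10, Nfkb2, and 1179 of all genes). Il1b was 5.46 ± 0.16 in normal DA hearts and 6.56 ± 0.56 in normal Lewis hearts (SD, n = 3), with no overlap.

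Between days 4 and 2, none of the 10 passed in allografts (0.380% of all genes did) or in isografts (0.0352%). By unadjusted p under 0.05 it was 3 of the 10 in allografts, namely Relb with a log2 difference of 0.71, Nfkb2 with 0.55 and Nfkb1 with 0.32, and 0 in isografts, against 1197 and 343 of all genes. Replicate 1 of the day 4 allografts had the lowest signal of its group for 9 of the 10 genes, and replicate 2 of the day 2 isografts had the highest of its group for 8 of the 10.

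Without replicate 1 of the day 4 allografts, 8 of the 10 passed on day 4 against normal DA. Those added were Tnfaip3 (log2 difference 1.37; adjusted p = 0.0138), Il6 (2.14; adjusted p = 0.0312), Birc3 (1.64; adjusted p = 0.0293), Relb (0.74; adjusted p = 0.0347) and Nfkb2 (0.74; adjusted p = 0.0114). Between days 4 and 2, Relb (1.05; adjusted p = 0.0160) and Nfkb2 (0.92; adjusted p = 0.0105) then passed too. The share of all genes that passed in this fit is not given here, so these counts have no background beside them. Of 19 receptors and adaptors, 8 rose on day 4 in the same fit, against 6 with all arrays. The fibroblast marker mean was 8.49 on replicate 1 of the day 4 allografts, against 12.3 and 10.8 on the other day 4 allograft arrays. On replicate 2 of the day 2 isografts it was 9.63, against 7.77 and 8.60 on the others, and the neutrophil marker mean was 6.99 against 5.71 and 5.87. In the other graft groups the array with the highest fibroblast mean was often the lowest for these genes. Replicate 3 of the day 2 allografts (11.8), replicate 1 of the day 3 allografts (10.5) and replicate 3 of the day 4 isografts (10.8) were each the lowest for 7 of the 10. Replicate 1 of the day 3 isografts (9.92) was the lowest for 5. The part of these cells in the gene values was not tested.

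Leukocytes taken from the allografts were measured beside the endothelium. Their arrays were normalized apart from the endothelial ones, so only levels are given, as deposited and after moving them down by the 0.359 log2 units by which their median over all genes was higher. Ptprc, the gene of CD45, had 12.4 to 12.7 on the 4 leukocyte arrays and 7.80 to 9.50 on the 9 allograft endothelial arrays, and Pecam1, the gene of CD31, had 8.68 to 10.39 and 10.99 to 12.35. The leukocyte samples were mixed too. Endothelial list means were 9.99 and 10.8 on the day 3 leukocyte arrays, against 8.87 on day 2 and 9.05 on day 4. Cardiomyocyte list means were 7.4 and 8.0 on day 3, against 6.2 on day 2 and 6.1 on day 4.

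Il1b stood at 14.14 in leukocytes of day 2, at 13.44 and 13.87 on day 3 and at 14.10 on day 4, above all allograft endothelial arrays, which lay between 7.92 and 11.04. The medians differed by 4.23 log2 units as deposited and by 3.87 after the shift. Tnfaip3 was also above, with 13.0 to 13.4 in leukocytes against 11.4 to 12.6 in allograft endothelium. Il6 was below, with 8.78 to 10.6 in leukocytes against 10.6 to 13.1 in allograft endothelium. As deposited the nearest arrays were almost tied, at 10.625 and 10.629. The Il6 medians differed by -2.52 as deposited and by -2.88 after the shift.

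Counted over the 10, as deposited 3 lay wholly above (Il1b, Tnfaip3 and Nfkb1, when 34.2% of all genes did) and 1 below (Il6, when 9% did). After the shift 2 lay above (Il1b and Tnfaip3, 16% of all genes) and 1 below (Il6, 18.7%). For Tnfaip3 the nearest arrays were then almost tied, at 12.63 in leukocytes and 12.61 in allograft endothelium. Tnf ranged from 10.1 to 11.7 in leukocytes and from 9.01 to 10.5 in allograft endothelium, and Sod2 from 12.1 to 13.4 and from 10.2 to 12.7, both with overlap.

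Other genes of the pathway were read from lists chosen by role. Of 19 receptors and adaptors, 6 rose and 1 fell in allografts over the mean of days, where 5.57% of all genes rose and 3.84% fell. In isografts 4 rose and none fell, where 3.29% of all genes rose and 1.26% fell. Tlr2, the receptor of bacterial lipoproteins, rose in both (log2 difference 2.08 in allografts and 1.73 in isografts), as did Il6st, the shared signalling chain of the interleukin-6 receptors (0.92 and 0.73), Tnfrsf1a, the main tumor necrosis factor receptor (0.65 and 0.55), and Il1r1, the signalling receptor of interleukin-1 (0.42 and 0.51). Il6r rose in allografts (1.51; adjusted p = 0.00220), with 0.50 in isografts (adjusted p = 0.447). Cd40, a costimulatory receptor, rose in allografts (0.64; adjusted p = 0.0439), with 0.39 in isografts (adjusted p = 0.333). Tlr4, the lipopolysaccharide receptor, fell in allografts (-0.87; adjusted p = 0.00950), with -0.61 in isografts (adjusted p = 0.105). The median of the list was 0.11 in allografts and 0.27 in isografts, against 0.01 and -0.01 for all genes.

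None of the 7 measured IKK and upstream kinase genes passed in the mean-of-days comparison of either kind of graft by limma. By unadjusted p under 0.05 it was 1 in allografts and 0 in isografts. Of 11 other subunits and inhibitors, none passed over the mean of days (2 in allografts and 2 in isografts by unadjusted p under 0.05). In day 4 allografts 2 of the 11 rose, where 11.4% of all genes passed in either direction. They were Tnip1, a partner of A20 (log2 difference 0.59; adjusted p = 0.0185), and Cyld, a deubiquitinase that restrains the pathway (0.60; adjusted p = 0.0398).

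Of 22 further target genes, 9 rose in allografts and 8 in isografts over the mean of days, and none fell, where 5.57% of all genes rose in allografts and 3.29% in isografts. Sele, the endothelial adhesion molecule E-selectin, had a log2 difference of 2.26 in allografts and 3.54 in isografts. Ptgs2, the inducible cyclooxygenase, had 2.10 and 3.34, the chemokine gene Cxcl2 had 2.44 and 3.00, and Bcl2a1 had 3.01 and 1.83. Ccl2, a monocyte chemoattractant, had 1.92 and 2.48, and the adhesion molecule gene Vcam1 had 1.34 and 1.73. All of these passed in both. Icam1, another adhesion molecule, rose in isografts (1.58; adjusted p = 0.0464), with 0.55 in allografts (adjusted p = 0.557). Without replicate 1 of the day 4 allografts, 10 of 22 rose in allografts. In a separate fit without replicate 2 of the day 2 isografts, 8 of 22 rose in isografts. The shares of all genes in these fits are not given here.

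Among 9 genes of interleukin-1 processing and antagonism, 4 rose in allografts and 2 in isografts over the mean of days, against the same 5.57% and 3.29% of all genes. Il18, a cytokine that caspase-1 activates, rose in both (log2 difference 2.14 in allografts and 1.68 in isografts). Il18bp, its soluble inhibitor, rose in allografts (1.35), with 0.28 in isografts (adjusted p = 0.749). Pycard, the inflammasome adaptor, rose in allografts (0.88), with 0.47 in isografts (adjusted p = 0.240), and Il1r2, the decoy receptor of interleukin-1, rose in allografts (1.80), with 1.53 in isografts (adjusted p = 0.0750). Socs3, an inhibitor of cytokine signalling, had 0.34 in allografts (adjusted p = 0.373) and rose in isografts (0.85; adjusted p = 0.0155). None of these 4 passed for the allograft change minus the isograft change. Il1a, the gene of interleukin-1 alpha, had -0.53 in allografts (adjusted p = 0.540) and 0.44 in isografts (adjusted p = 0.690), and Il1rn, the receptor antagonist, had 0.48 (adjusted p = 0.0628) and 0.39 (adjusted p = 0.205).

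**Figure D4:**
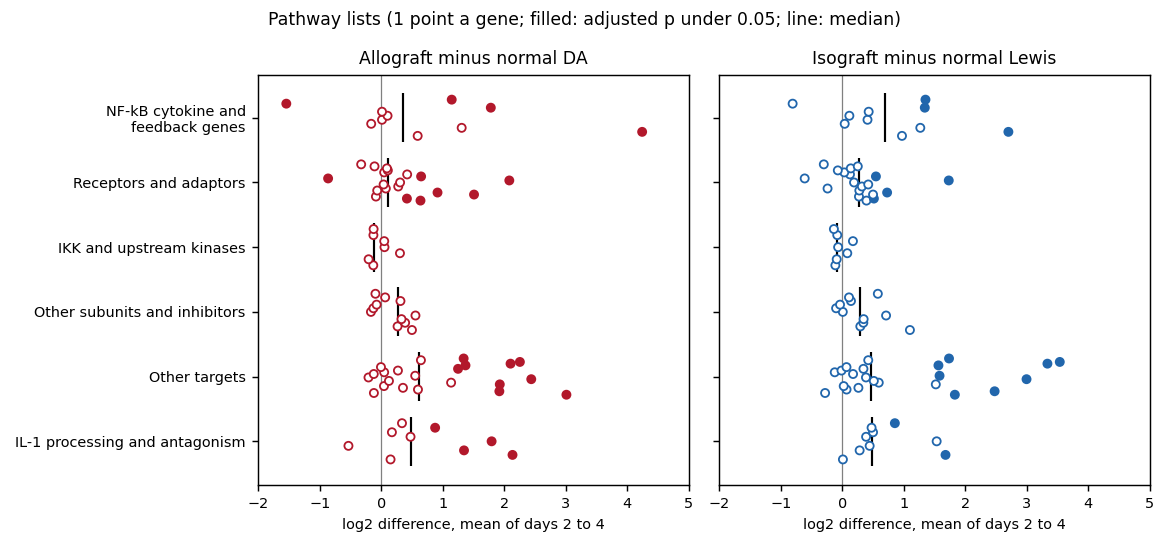
Log2 difference over the mean of days 2 to 4 for the 10 genes and for the genes of 5 pathway lists, with allografts minus normal DA hearts and isografts minus normal Lewis hearts side by side. Each point is 1 gene, filled where adjusted p is under 0.05, and the line is the median of the list. The kinase list has no filled point, and the further targets have 9 filled points in allografts and 8 in isografts.

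Over the 24 endothelial arrays the 10 genes fell into loose groups by their signal. The highest correlations were Il6 with Tnfaip3 (r = 0.870), Il6 with Sod2 (r = 0.855), Relb with Nfkb2 (r = 0.855), Il1b with Tnfaip3 (r = 0.840) and Sod2 with Tnfaip3 (r = 0.834). These arrays share groups and normalization, and the coefficients are descriptions. By group mean, Il1b was highest in day 2 allografts (10.4), followed by day 4 isografts (9.80), day 3 isografts (9.59), day 4 allografts (9.53), day 3 allografts (9.16) and day 2 isografts (8.40), each overlapping the next. Normal Lewis hearts (6.56) and then normal DA hearts (5.46) followed without overlap. For Tnf the order began with normal DA hearts (11.3) and normal Lewis hearts (10.9) and ended with day 2 isografts (9.62) and day 2 allografts (9.55), and every neighbour overlapped the next.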

How the data were processed

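The authors deposited log2 signals per probe set, made with RMA in the affy package per the submitters' processing notes; versions and annotation build are not given in the sources used here. The values show that endothelial and leukocyte arrays were normalized apart. Of 31099 probe sets, 20826 name 1 gene, 436 several and 9780 none in the platform table, and 57 are controls; 20758 matched RefSeq. The probe set with the highest endothelial mean stood for each of 14217 genes. limma 3.58.1 in R 4.3.3 fitted 8 group means to 24 arrays (lmFit, eBayes; 16 residual degrees of freedom), with Benjamini-Hochberg adjustment over all genes. A gene passed, or was called higher or lower, at adjusted p under 0.05, and rose and fell are used of such genes only. The median SE of a difference of 2 groups was 0.165 log2 units, and the number of arrays limits the precision. The fit was tested on simulated data.

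The genes, lists and comparisons were chosen with earlier results of these data known. All 10 genes are described. Other genes were named where called with the largest difference of their list, or by the highest correlation; further ones were chosen after their values were seen. Replicate numbers count as a pairing in 1 comparison, day 2 isografts against normal Lewis, where every same-numbered pair had deviations from the group means correlated at over 0.1 (r = 0.292, 0.350 and 0.412). The labels state no shared animal or day. Alternatives changed the block, samples fitted, probe set rule, dim-gene filter, array centring, quantile normalization, variance model and each array left out.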

Additional observations from a re-analysis of the deposited data

How the results depend on the processing

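Over other settings, 1191 of 1210 gene values kept their direction and side of the threshold, 3 were no longer past it, 16 newly passed, and none that passed changed sign. With arrays left out it was 1341 of 1390, with 41 no longer past it and 8 newly passing. The number of the 10 genes that passed changed as follows. With the replicate block, 2 passed in day 3 allografts (Tnf added, adjusted p = 0.0247), 4 in day 4 allografts (Tnfaip3 added, adjusted p = 0.0350) and 1 in day 2 isografts, where the blocked fit of these groups alone gave 4. Leaving out dim genes also gave 4 in day 4 allografts (Tnfaip3 added, adjusted p = 0.0489). With only the groups compared, 5 passed in day 2 allografts (Il6 added, adjusted p = 0.00653), 3 in isografts of day 3 (Sod2 added, adjusted p = 0.0254) and of day 4 (Sod2 added, adjusted p = 0.0271), 2 in day 3 allografts (Sod2 added, adjusted p = 0.0172) and 1 in day 4 allografts, where Sod2 (adjusted p = 0.0606) and Tnf (adjusted p = 0.0726) were lost. With median centring, 1 passed in day 4 isografts (Tnfaip3 lost, adjusted p = 0.0725), and with centring on endothelial markers, whose mean was 11.99 in day 4 allografts against 12.29 in normal DA hearts, 7 passed in day 4 allografts. With single arrays left out, the number that passed was 2 to 2 in allografts of day 2, 1 to 1 of day 3, 2 to 8 of day 4 and 3 to 4 over the mean. In isografts it was 0 to 0 on day 2, 0 to 2 on day 3, 0 to 2 on day 4 and 0 to 4 over the mean. It was 0 to 2 for allograft day 4 against day 2, and 0 to 0 for isograft day 4 against day 2, for each difference between the changes and for DA against Lewis. The shares of all genes that passed with single arrays left out are not given here. Fitting only the groups compared moved the counts over all genes to 510 against 850 in day 2 allografts, 514 against 1627 in day 4 allografts, 711 against 1338 over the allograft mean, 562 against 360 in day 3 isografts and 1078 against 647 over the isograft mean. Centring on endothelial markers moved them to 3487 in day 4 allografts and 2204 over the allograft mean, and leaving out dim genes to 214 against 324 in day 3 allografts. The blocked fit of day 2 isografts and normal Lewis alone gave 572 against 211. The leukocyte median of Nfkbia was 0.079 above allograft endothelium as deposited and -0.28 after the shift. The causes were not tested.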
